A study of Mus musculus with 30 samples.

Results

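Fibroblast and extracellular matrix genes were followed in the salivary gland of mice that had received an antibody against CD40L. The set was a fixed list of 36 genes for collagens, proteoglycans, elastic fibre proteins, cross-linking enzymes, matrix glycoproteins, platelet-derived growth factor (PDGF) receptors and matrix proteases with their inhibitors. A probe set with exactly 1 gene name was found for 35 of the 36, and no probe set was matched to Fbn1, so that gene was not analysed here. Each gene was represented by its probe set of highest mean level, and all 35 passed the filter on low values that left 12998 of 18193 genes for testing.

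Total RNA of the whole salivary gland of female NOD.H-2h4 mice was measured on Affymetrix Mouse Genome 430 2.0 arrays. NOD.H-2h4 is an inbred strain prone to spontaneous autoimmune inflammation of the salivary gland. All animals were given 1 intraperitoneal injection of 20 mg/kg at the age of 4 weeks, either of an anti-CD40L monoclonal antibody or of a human IgG1 isotype control antibody. Glands were collected at week 8, 16 or 24. The 6 groups were control at week 8, control at week 16, control at week 24, anti-CD40L at week 8, anti-CD40L at week 16 and anti-CD40L at week 24, with 5 arrays each, 30 in all. There was no untreated group and no other strain, and no allele or further agent is named in the labels. The labels call the 5 arrays of a group biological replicates and do not name animals, so the p-values measure the spread between these samples.

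The extracellular matrix of a gland is made largely by fibroblasts, which secrete fibrillar collagens, small proteoglycans that coat the fibrils, and glycoproteins that link fibrils to cells. Basement membrane collagens lie under epithelium and around vessels and come from several cell types. Lysyl oxidases cross-link collagen and elastin, metalloproteinases cleave matrix proteins, and tissue inhibitors of metalloproteinases (TIMPs) hold those enzymes in check. CD40L is a T cell surface protein that binds CD40 on B cells, macrophages and other cells. In RNA of a whole gland, fewer cells of a type and less RNA per cell cannot be told apart.

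Anti-CD40L glands had lower levels of several matrix genes than control glands at week 16 and higher levels of several at week 24, with Cpxm1 among both. By sign alone, 24 of the 35 differences were below 0 at week 16 and above 0 at week 24. At week 16, 5 of the 35 genes were lower with anti-CD40L: the secreted carboxypeptidase family gene Cpxm1, the proteoglycans Lum and Ogn, and the collagens Col6a3 and Col14a1. None was higher. At week 24, 8 were higher and none was lower: the collagens Col1a2, Col4a1, Col4a2, Col6a1, Col6a2 and Col15a1, the PDGF receptor gene Pdgfra, and Cpxm1. Cpxm1 passed the test in opposite directions at these ages, but its week 24 call was lost without 8 of the 10 arrays taken singly and under 7 of 14 alternatives. At week 16 the calls of Col6a3 and Col14a1 were lost without 9 of 10 arrays each, Ogn without 7 and Lum without 6. At week 24 that of Col4a2 was lost without 8 and that of Col1a2 without 5. Cpxm1 at week 16 and Pdgfra and Col4a1 at week 24 were called without each array in turn.

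The test was limma's moderated statistic on log2 intensities, with Benjamini-Hochberg adjustment over all 12998 genes and a threshold of 0.05, and "called" below means past that threshold. A log2 difference of 1 is a factor of 2. At week 8 no gene of the set was called by limma, 10 had an unadjusted p under 0.05, while 0.0692% of all genes were called lower and 0% higher. At week 16, 0.577% of all genes were called lower with anti-CD40L and 1.31% higher, beside the 5 and 0 of 35 matrix genes. At week 24, 5.96% of all genes were called higher and 3.49% lower, beside 8 and 0 of 35. The median difference of the 35 genes was 0.20 at week 8, -0.40 at week 16 and 0.33 at week 24, while the median over all genes was 0.01, 0.02 and 0.03. Of the 35, 29 lay above 0 at week 8, 29 below 0 at week 16 and 29 above 0 at week 24.

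**Figure D1:**
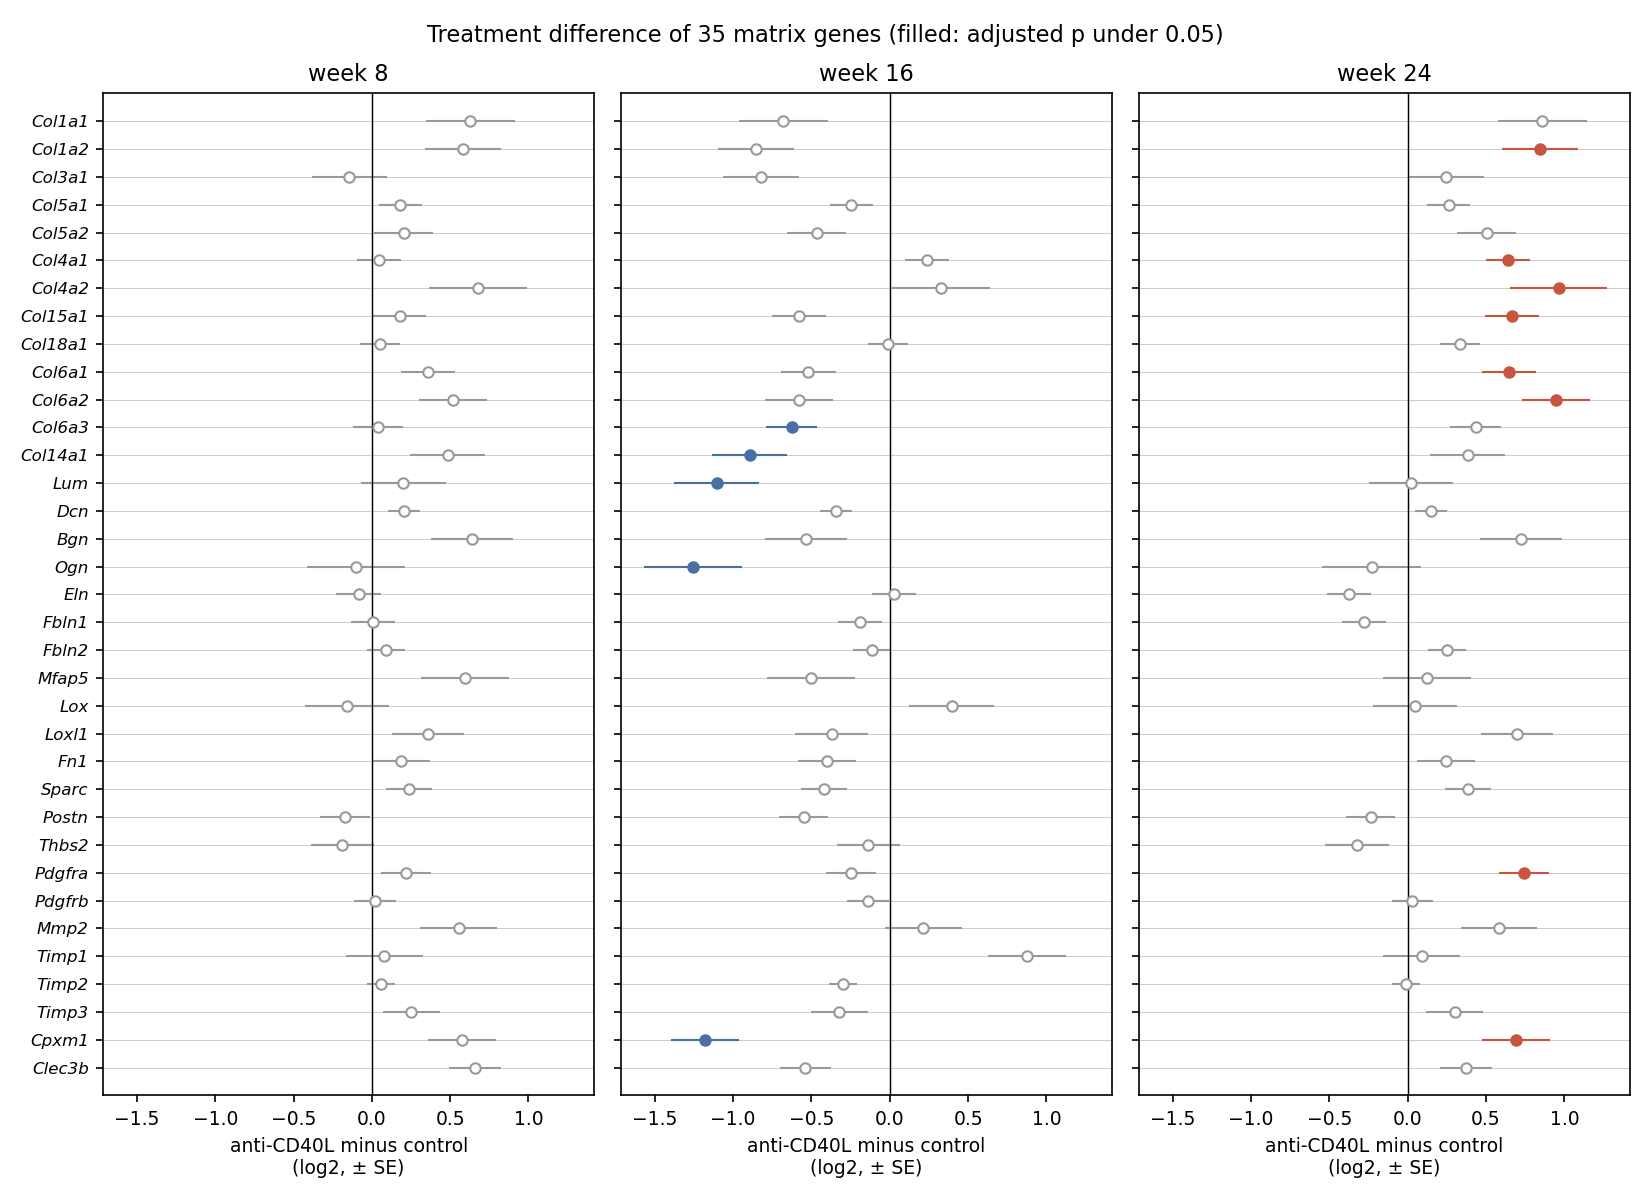
Difference between anti-CD40L and control (log2, anti-CD40L minus control) for each of the 35 matrix genes at weeks 8, 16 and 24, from 5 arrays per group. Bars are standard errors of the model, and filled points passed an adjusted p of 0.05: none at week 8, 5 below 0 at week 16 and 8 above 0 at week 24.

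The change of the treatment difference between ages was tested directly. From week 16 to week 24 the difference rose for 8 of the 35 genes, Cpxm1, Col1a2, Col6a2, Col15a1, Col6a1, Col6a3, Pdgfra and Clec3b, and fell for none, while 0.631% of all genes rose and 0.531% fell. The median change was 0.64 for the matrix genes and 0.01 for all genes, with 30 of 35 above 0. From week 8 to week 16 the difference fell for Cpxm1 and Clec3b and rose for no matrix gene, against 0.0231% of all genes that fell and 0.123% that rose. From week 8 to week 24 limma called none of the 35, 2 had an unadjusted p under 0.05, and 0.00769% of all genes were called. These changes share arrays with the differences at single ages, so they are the same data seen in another contrast.

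Measures of the whole arrays stood beside these results. Array medians lay between 5.487 and 5.537 in log2 intensity. The labelled tissue was borne out by its own products: the mean of 9 acinar and saliva genes lay between 10.60 and 12.51 in every array. The mean of 4 parotid genes ranged from 8.60 to 13.88 over the arrays. In 5 arrays the median correlation with the other arrays was 0.953 to 0.972, and in the other 25 it was at least 0.979. These were replicates 3 and 4 of the week 8 controls, 1 and 3 of the week 8 anti-CD40L group and 1 of the week 24 controls. Without these 5 arrays, limma called 14 matrix genes at week 16 (13 lower and 1 higher), 8 at week 24 and 10 for the change from week 16 to week 24. A sign of RNA quality, the excess of 3' over 5' signal in the control probe sets for Gapdh and beta-actin, was 0.287 to 0.610 in the week 24 controls and 0.164 to 0.248 in the week 24 anti-CD40L arrays, with no overlap.

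Among the fibrillar collagens, which form the main fibrils of loose connective tissue, Col1a2 was the 1 called for treatment. In the control arrays its level was 10.29, 10.06, 9.66, 9.22 and 9.71 at week 8, 10.99, 10.87, 10.49, 10.76 and 10.83 at week 16, and 9.28, 10.37, 10.01, 10.24 and 10.14 at week 24. In the anti-CD40L arrays it was 9.92, 10.88, 9.83, 10.49 and 10.75 at week 8, 9.89, 10.54, 10.08, 9.22 and 9.95 at week 16, and 10.71, 10.71, 11.56, 10.60 and 10.68 at week 24. The control group was at its highest at week 16, when the anti-CD40L group was low and overlapped it by a single array, and at week 24 every anti-CD40L array lay above every control array. The treatment difference was 0.58 ± 0.24 (SE, n = 5 per group) at week 8, -0.85 ± 0.24 at week 16 (adjusted p = 0.0618) and 0.84 ± 0.24 at week 24 (adjusted p = 0.0319). Its change from week 16 to week 24 was 1.70 ± 0.34 with an adjusted p of 0.0164.

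Col1a1, which encodes the partner chain of collagen I, was not called for treatment. Its difference was 0.63 ± 0.28 at week 8, -0.68 ± 0.28 at week 16 and 0.86 ± 0.28 at week 24 (adjusted p = 0.0525). At week 24 the anti-CD40L arrays read 6.75, 6.47, 7.59, 6.57 and 6.47 and the controls 5.46, 6.44, 5.92, 6.04 and 5.70, with no overlap. Col3a1, the collagen III gene, had a difference of -0.82 ± 0.24 at week 16 (adjusted p = 0.0738) and 0.24 ± 0.24 at week 24. The collagen V genes Col5a1 and Col5a2, whose product regulates fibril diameter, had differences of -0.24 ± 0.14 and -0.47 ± 0.19 at week 16 and of 0.26 ± 0.14 and 0.51 ± 0.19 at week 24. All 5 fibrillar genes lay below 0 at week 16 and above 0 at week 24, and 1 of them, Col1a2, was called at week 24.

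**Figure D2:**
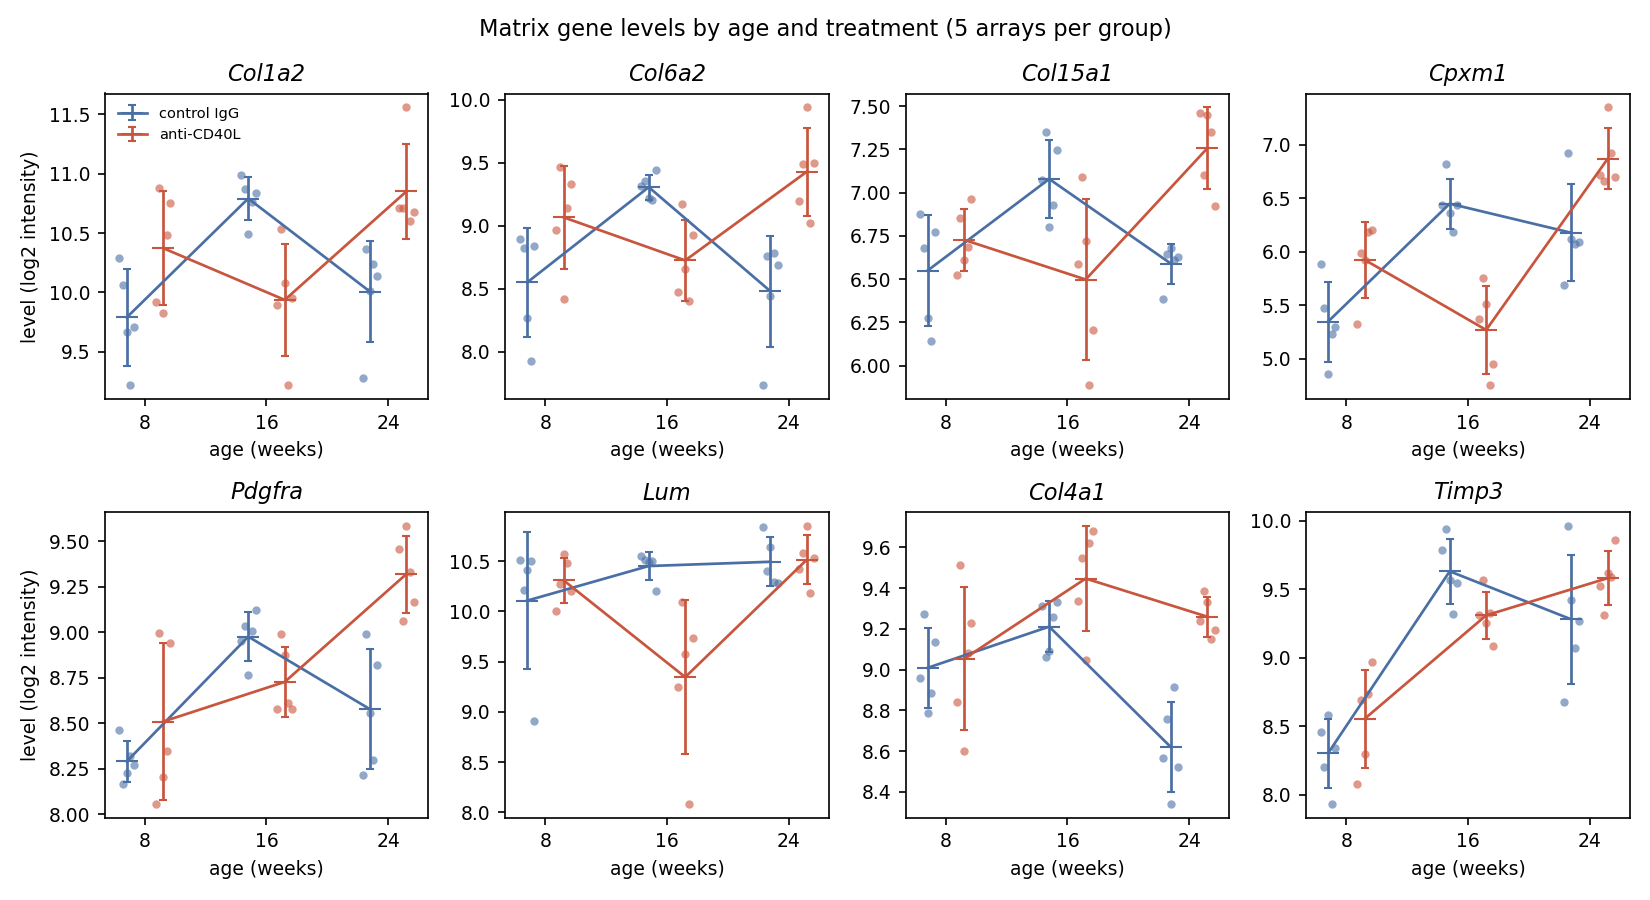
Level (log2 intensity) of 8 matrix genes against age in weeks, with each array as a point and the group mean ± SD over 5 arrays as bars, control IgG in blue and anti-CD40L in red. Col1a2, Col6a2, Col15a1 and Cpxm1 are highest at week 16 in the controls and at week 24 with anti-CD40L, Lum is low in the anti-CD40L arrays of week 16, Col4a1 separates at week 24, and Timp3 is higher at weeks 16 and 24 than at week 8 in both treatments.

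Collagen VI, a beaded filament collagen close to cells, was covered by 3 genes, and all of them changed. Col6a2 read 9.31, 9.35, 9.22, 9.21 and 9.44 in the week 16 controls and 8.47, 9.18, 8.65, 8.40 and 8.93 in the week 16 anti-CD40L arrays. At week 24 the controls read 7.73, 8.76, 8.44, 8.78 and 8.69 and the anti-CD40L arrays 9.19, 9.49, 9.94, 9.03 and 9.50. The groups did not overlap at either age, and their order turned over. The difference went from -0.58 ± 0.22 (adjusted p = 0.174) to 0.95 ± 0.22 (adjusted p = 0.0107), and its change of 1.53 ± 0.31 had an adjusted p of 0.0156.

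Col6a1 read 7.18, 8.03, 7.73, 7.83 and 7.84 in the week 24 controls and 8.21, 8.29, 8.85, 8.18 and 8.31 in the anti-CD40L arrays of that age. All anti-CD40L arrays were higher, by 0.65 ± 0.17 (adjusted p = 0.0225), after a difference of -0.52 ± 0.17 at week 16 (adjusted p = 0.12). For Col6a3 the week 16 controls read 8.996, 8.93, 8.64, 8.81 and 8.94 and the anti-CD40L arrays 8.04, 8.75, 8.23, 7.80 and 8.37. Replicate 2 of the anti-CD40L group overlapped the lowest control, and the other 4 lay below. Col6a3 was lower with anti-CD40L by -0.63 ± 0.16 at week 16 (adjusted p = 0.0414), and its difference of 0.43 ± 0.16 at week 24 was not called (adjusted p = 0.0797) although the arrays did not overlap. The change between these ages was 1.17 ± 0.24 for Col6a1 and 1.06 ± 0.23 for Col6a3, with adjusted p of 0.0196 and 0.0218.

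Col14a1 encodes collagen XIV, which attaches to the surface of collagen I fibrils. Its level was 8.19, 7.74, 7.45, 7.69 and 7.97 in the week 16 controls and 6.83, 7.62, 6.96, 6.28 and 6.88 in the anti-CD40L arrays, with replicate 2 again inside the control range. The difference was -0.89 ± 0.24 at week 16 (adjusted p = 0.0467), 0.48 ± 0.24 at week 8 and 0.38 ± 0.24 at week 24.

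Basement membrane collagens line epithelium and vessels. Col4a1 and Col4a2 encode the chains of the common collagen IV network, and their difference was above 0 at all 3 ages. Col4a1 read 8.56, 8.76, 8.34, 8.91 and 8.52 in the week 24 controls and 9.24, 9.39, 9.33, 9.15 and 9.20 in the anti-CD40L arrays. The groups were apart, with a difference of 0.64 ± 0.14 (adjusted p = 0.00863) after 0.04 ± 0.14 at week 8 and 0.24 ± 0.14 at week 16. A further Col4a1 probe set that passed the filter had differences of 0.56, 0.12 and 0.56 at weeks 8, 16 and 24. The size of the Col4a1 difference at week 8 thus depends on the probe set. Col4a2 read 6.25, 7.76, 7.27, 7.73 and 7.57 in the week 24 controls and 8.15, 8.28, 8.46, 8.27 and 8.23 in the anti-CD40L arrays. Again no arrays overlapped, control replicate 1 was far below the other controls, and the difference was 0.96 ± 0.31 (adjusted p = 0.049). In the RefSeq promoter windows of build GRCm38.p6, start sites of these genes lie 21 bases apart on opposite strands of chromosome 8. They are at 11312826 on the minus strand for Col4a1 and at 11312805 on the plus strand for Col4a2. The RefSeq span of the Col4a1 gene reaches 11312889, past the start of Col4a2, so the genes overlap there. The change of the difference from week 16 to week 24 was not called for either, at 0.40 ± 0.20 (adjusted p = 0.284) and 0.64 ± 0.44 (adjusted p = 0.47).

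Collagens XV and XVIII lie at the border between basement membrane and stroma. Col15a1 read 7.07, 7.35, 6.80, 6.93 and 7.25 in the week 16 controls against 6.59, 7.09, 6.72, 5.89 and 6.21 with anti-CD40L, and 6.39, 6.65, 6.68, 6.61 and 6.63 in the week 24 controls against 7.46, 7.10, 7.45, 7.35 and 6.92. The week 16 groups overlapped by replicate 2 of the treated group, and the week 24 groups were separate in the other direction. Its difference was -0.58 ± 0.17 at week 16 (adjusted p = 0.0738) and 0.67 ± 0.17 at week 24 (adjusted p = 0.0183), a change of 1.25 ± 0.24 with an adjusted p of 0.0127. Col18a1 had differences of 0.05 ± 0.13, -0.01 ± 0.13 and 0.33 ± 0.13 at weeks 8, 16 and 24, none of them called.

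The small leucine-rich proteoglycans bind collagen fibrils and limit their growth, and lumican (Lum) and osteoglycin (Ogn) were lower with anti-CD40L at week 16. Lum read 10.55, 10.52, 10.49, 10.50 and 10.20 in the week 16 controls and 9.25, 10.09, 9.57, 8.08 and 9.73 in the anti-CD40L arrays. Ogn read 8.52, 8.64, 8.43, 8.70 and 8.48 in the controls and 7.31, 8.29, 7.41, 6.09 and 7.38 in the anti-CD40L arrays. For both genes the treated arrays were below every control, with replicate 4 lowest and replicate 2 highest in the treated group. The differences were -1.10 ± 0.27 for Lum (adjusted p = 0.0344) and -1.26 ± 0.31 for Ogn (adjusted p = 0.0363). At week 24 they were 0.02 ± 0.27 and -0.23 ± 0.31, and the 95% intervals, -0.54 to 0.58 and -0.88 to 0.42, leave room for differences of either sign. A further Ogn probe set that passed the filter in all 30 arrays had differences of 0.70, -1.15 and -0.04 at weeks 8, 16 and 24, so the sign at week 8 depends on the probe set.

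Decorin (Dcn) and biglycan (Bgn) are the other proteoglycans of the set. Dcn had differences of -0.34 ± 0.10 at week 16 (adjusted p = 0.0806), with separate groups, and 0.15 ± 0.10 at week 24. Bgn went from 0.64 ± 0.26 at week 8 to -0.53 ± 0.26 at week 16 and 0.72 ± 0.26 at week 24 (adjusted p = 0.0724). At week 8 Bgn read 9.32, 10.17, 9.26, 10.06 and 10.44 with anti-CD40L and 9.87, 9.40, 8.86, 8.44 and 9.46 in controls, so the groups overlapped.

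The elastic fibre genes showed no called treatment difference at any age. Elastin (Eln) had differences of -0.09 ± 0.14, 0.03 ± 0.14 and -0.37 ± 0.14 (adjusted p = 0.0825) at weeks 8, 16 and 24. A further Eln probe set that passed the filter had 0.03 at week 24, so the sign there depends on the probe set. The microfibril-associated gene Mfap5 had 0.60 ± 0.28, -0.50 ± 0.28 and 0.12 ± 0.28. The fibulins, which link elastic fibres to basement membranes, gave 0.01 ± 0.14, -0.19 ± 0.14 and -0.28 ± 0.14 for Fbln1 and 0.09 ± 0.12, -0.12 ± 0.12 and 0.25 ± 0.12 for Fbln2. For Fbln1 a second probe set that also passed the filter read differently at week 24, with a difference of 0.80, so no direction is given for its treatment difference.

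The cross-linking enzymes did not pass either. Loxl1 had differences of 0.36 ± 0.23, -0.37 ± 0.23 and 0.70 ± 0.23 (adjusted p = 0.0542) at the 3 ages, and Lox had -0.16 ± 0.27, 0.39 ± 0.27 and 0.04 ± 0.27. Lox was thus among the 6 genes with a value above 0 at week 16, with Timp1, Mmp2, Col4a1, Col4a2 and Eln.

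Of the adhesive and matricellular glycoproteins, which connect cells with the matrix or modulate that contact, none was called for treatment. Fibronectin (Fn1) had -0.40 ± 0.19 at week 16 and 0.24 ± 0.19 at week 24, and osteonectin (Sparc) had -0.42 ± 0.15 (adjusted p = 0.142) and 0.38 ± 0.15 (adjusted p = 0.0873). The change for Sparc was 0.81 ± 0.21 with an adjusted p of 0.0506. Periostin (Postn) read 10.22, 9.96, 9.88, 10.05 and 9.86 in the week 16 controls and 9.32, 9.77, 9.27, 9.29 and 9.57 with anti-CD40L. These groups did not overlap, and the difference of -0.55 ± 0.16 had an adjusted p of 0.0648. Postn and thrombospondin 2 (Thbs2) were, with Ogn, the 3 genes below 0 at all ages on the probe sets used, Thbs2 with -0.19 ± 0.20, -0.14 ± 0.20 and -0.32 ± 0.20.

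The PDGF receptors mark fibroblasts (Pdgfra) and pericytes and other mural cells as well as fibroblasts (Pdgfrb). Pdgfra read 8.22, 8.99, 8.56, 8.30 and 8.82 in the week 24 controls and 9.46, 9.06, 9.59, 9.33 and 9.17 in the anti-CD40L arrays. All treated arrays were above all controls, and the difference of 0.74 ± 0.16 had an adjusted p of 0.00819, the smallest of the set at that age. At week 16 its difference was -0.25 ± 0.16 (adjusted p = 0.524), and the change between these ages was 0.99 ± 0.23 (adjusted p = 0.0289). Pdgfrb had 0.02 ± 0.13, -0.14 ± 0.13 and 0.03 ± 0.13. Its other probe set that passed the filter had a difference of 1.11 at week 24, so the absence of a call for Pdgfrb rests on the probe set chosen.

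Cpxm1, a secreted member of the carboxypeptidase family, had the smallest adjusted p of the set at week 16. It read 6.44, 6.82, 6.36, 6.18 and 6.44 in the week 16 controls and 5.37, 5.76, 5.51, 4.75 and 4.95 in the anti-CD40L arrays. At week 24 it read 5.68, 6.92, 6.12, 6.07 and 6.09 in the controls and 6.71, 6.66, 7.35, 6.93 and 6.70 in the anti-CD40L arrays. The groups were apart at week 16, while at week 24 control replicate 2 lay among the treated arrays. The week 16 anti-CD40L values lay around or below the array medians of 5.487 to 5.537. The only Cpxm1 probe set was above the array median in 22 of 30 arrays and did not pass the filter at the 70th percentile. The difference was 0.58 ± 0.22 at week 8 (adjusted p = 0.249), -1.18 ± 0.22 at week 16 (adjusted p = 0.0035) and 0.69 ± 0.22 at week 24 (adjusted p = 0.0432). Its change was -1.76 ± 0.31 from week 8 to week 16 (adjusted p = 0.0231) and 1.87 ± 0.31 from week 16 to week 24 (adjusted p = 0.00345).

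Tetranectin (Clec3b), a secreted plasminogen-binding protein, was the only gene of the 35 whose groups were separate at week 8, against 0.323% of all genes with anti-CD40L above control. It read 7.92, 8.06, 7.55, 7.83 and 7.83 with anti-CD40L and 7.44, 7.29, 7.31, 7.02 and 6.85 in controls at week 8. At week 16 it read 7.42, 7.75, 7.50, 6.91 and 7.28 with anti-CD40L and 7.94, 7.85, 7.80, 7.80 and 8.16 in controls, separate in the other direction. The differences of 0.66 ± 0.17 (adjusted p = 0.138) and -0.54 ± 0.17 (adjusted p = 0.0849) were not called, but the change of -1.20 ± 0.23 between them was (adjusted p = 0.0342), as was the change of 0.91 ± 0.23 from week 16 to week 24 (adjusted p = 0.0478). The call of the change from week 8 to week 16 was lost without 11 of the 20 arrays taken singly and under 3 of 15 alternatives.

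The matrix metalloproteinase gene Mmp2 and the TIMP genes were not called for treatment. Mmp2 had 0.56 ± 0.24, 0.21 ± 0.24 and 0.58 ± 0.24, above 0 at all ages. Timp1 had the largest difference above 0 at week 16, reading 6.19, 6.34, 5.86, 7.02 and 7.06 with anti-CD40L and 5.95, 5.46, 5.58, 5.60 and 5.50 in controls. Control replicate 1 overlapped the treated arrays, and the difference of 0.88 ± 0.25 had an adjusted p of 0.0598. Timp3 had 0.25 ± 0.18, -0.32 ± 0.18 and 0.30 ± 0.18. Timp2 had -0.30 ± 0.09 at week 16 (adjusted p = 0.0811) and -0.01 ± 0.09 at week 24, but 4 other probe sets of Timp2 that passed the filter had differences of 0.68, 0.81, 0.35 and 0.75 at week 24, so its level at that age depends on the probe set.

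In total, the treatment groups were separate with anti-CD40L above in 1 of 35 genes at week 8, 0 at week 16 and 9 at week 24, against 0.323%, 6.03% and 6.37% of all genes. They were separate with anti-CD40L below in 0, 7 and 0 of 35, against 0.792%, 3.02% and 1.76%. Of the other probe sets of these genes, 31 for 21 genes passed the filter. The sign was that of the chosen probe set for 30 of them at week 16, for 24 at week 24 and for 27 in the change from week 16 to week 24.

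**Figure D3:**
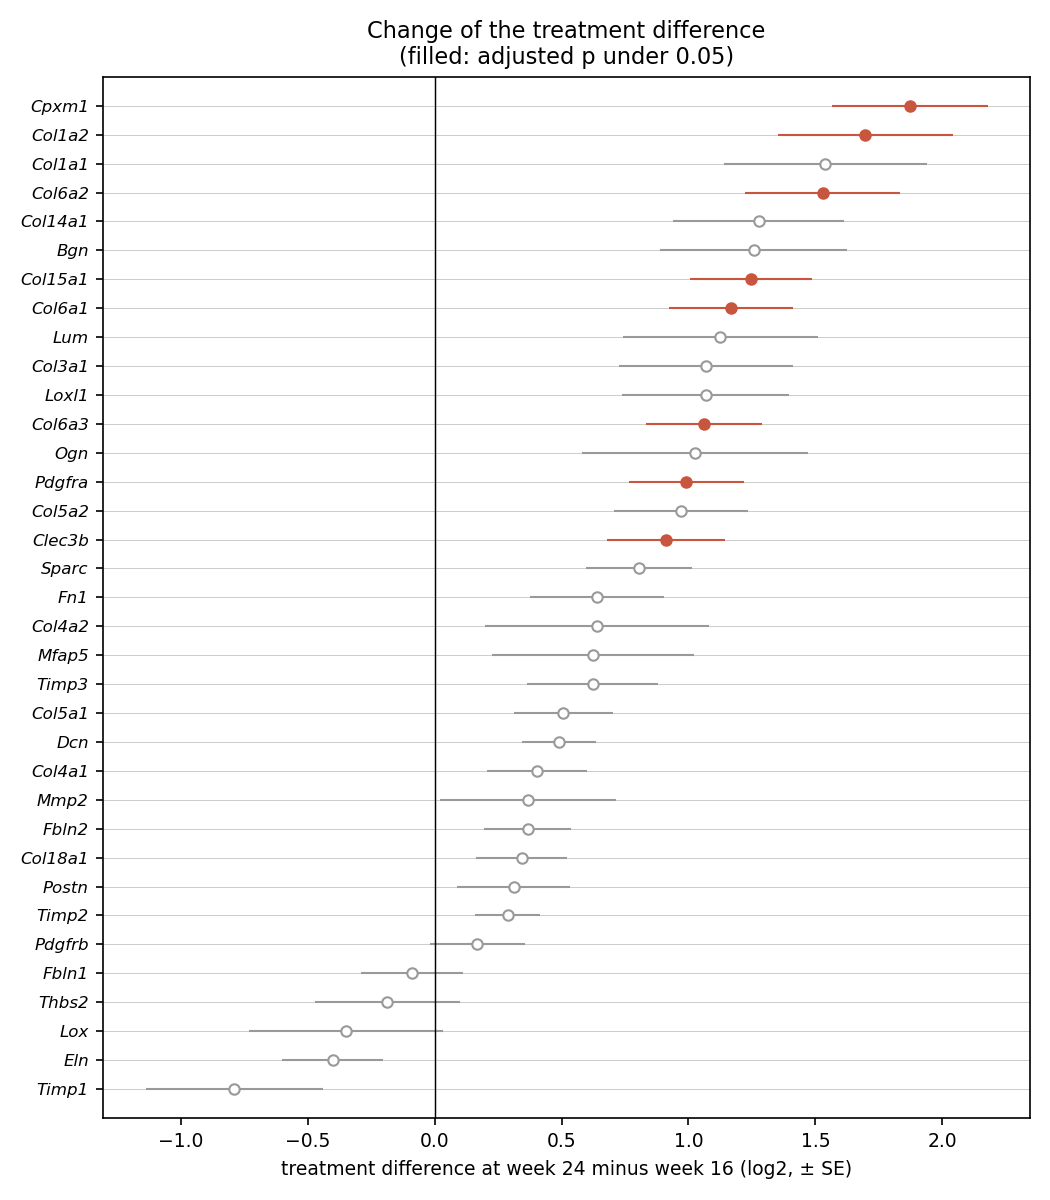
Change of the treatment difference from week 16 to week 24 (log2, ± SE) for each of the 35 matrix genes, from 20 arrays. Filled points passed an adjusted p of 0.05: the 8 called changes lie between 0.91 for Clec3b and 1.87 for Cpxm1, and 5 genes lie below 0.

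Sequence upstream of the start site is shown for the genes called in the change from week 16 to week 24 that had a single window in the RefSeq promoter table and whose last 120 bases before the start lay outside the gene. These were Cpxm1 (chr2:130397630-130397749, minus strand), Col1a2 (chr6:4505498-4505617, plus strand) and Col6a1 (chr10:76726045-76726164, minus strand) in build GRCm38.p6. Each is written 5′ to 3′ on the strand of the gene and ends at the base before the start. Capitals mark matches, on either strand, to a CCAAT box, to the letters TATAAA of a TATA box, or to the letters GGGCGG of a GC box.
Cpxm1: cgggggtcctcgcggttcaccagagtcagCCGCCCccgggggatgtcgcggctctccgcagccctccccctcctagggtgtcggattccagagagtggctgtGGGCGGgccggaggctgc
Col1a2: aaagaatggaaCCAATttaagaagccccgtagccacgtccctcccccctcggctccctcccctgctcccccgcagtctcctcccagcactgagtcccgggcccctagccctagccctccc
Col6a1: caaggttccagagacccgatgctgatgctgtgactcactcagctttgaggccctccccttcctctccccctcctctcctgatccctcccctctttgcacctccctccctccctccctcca
The letters GGGCGG were found upstream of Cpxm1 on both strands, beginning 18 bases before the start on the strand of the gene and 91 bases before it on the opposite strand. CCAAT was found upstream of Col1a2, beginning 109 bases before the start. None of these letter strings was found in the stretch shown for Col6a1. Of the 35 genes, 22 had a window in the table, 26 windows in all. Over the 250 bases before the start, GGGCGG was in 13 of these 26 windows (50%) and in 32.7% of all 32851 windows, CCAAT in 8 (30.8%) against 33.8%, and TATAAA in 4 (15.4%) against 12.4%. Windows of 1 gene can overlap, and a match is a description of the letters.

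With age, control glands showed higher levels of many matrix genes at week 16 than at week 8. In the controls 18 of the 35 were higher at week 16 than at week 8 and 1 was lower, while 28.4% of all genes were called higher and 18.1% lower. The largest rises were in Timp3 (1.33 ± 0.18, adjusted p = 2.41e-05), Bgn (1.31 ± 0.26, adjusted p = 0.0004), Col1a1 (1.12 ± 0.28, adjusted p = 0.00277), Cpxm1 (1.10 ± 0.22, adjusted p = 0.000357), Col4a2 (1.09 ± 0.31, adjusted p = 0.00643) and Col1a2 (1.002 ± 0.24, adjusted p = 0.00202). Timp3 encodes the TIMP that is bound to the matrix, and it read 8.46, 8.20, 8.58, 7.93 and 8.34 at week 8 and 9.79, 9.94, 9.57, 9.32 and 9.55 at week 16. No arrays of these ages overlapped. Elastin was the gene that fell, by 0.61 on the log2 scale (SE 0.14, adjusted p = 0.00141), with 7.60, 7.85, 7.98, 8.45 and 8.16 at week 8 and 7.39, 7.47, 7.47, 7.38 and 7.29 at week 16, also without overlap. The arrays of the later age were all above in 11 of 35 genes and all below in 1, against 16.4% and 10.4% of all genes. Before the rise, at week 8, the controls read 5.88, 5.47, 4.86, 5.23 and 5.29 for Cpxm1 and 8.06, 7.55, 6.52, 5.95 and 7.34 for Col4a2. Col4a2 ranged widely among these arrays, and the week 8 anti-CD40L arrays, at 7.07, 8.55, 7.08, 7.87 and 8.26, overlapped these controls (difference 0.68 ± 0.31, adjusted p = 0.301). Week 8 controls had an excess of 3' over 5' signal of 0.359 to 0.859 and week 16 controls of 0.228 to 0.378. At week 16, 4 of 11 smooth muscle and myoepithelial markers and 8 of 10 macrophage markers were called higher. The part of the smooth muscle and myoepithelial markers in the result was not tested beyond the covariate fit. No fit had the macrophage markers as a covariate, so their part was not tested. With the 3' minus 5' difference as a covariate 1 of the 19 calls remained, and with the smooth muscle and myoepithelial markers 3 remained.

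From week 16 to week 24 several of these genes came down again in the controls. Col4a1, Col6a1, Col6a2, Sparc, Col1a2 and Col1a1 were lower at week 24, 6 of 35 against 7.39% of all genes, and Eln was higher, 1 of 35 against 5% of all genes. The differences were -0.59 ± 0.14 for Col4a1, -0.69 ± 0.17 for Col6a1, -0.82 ± 0.22 for Col6a2, -0.49 ± 0.15 for Sparc, -0.78 ± 0.24 for Col1a2 and -0.87 ± 0.28 for Col1a1. In the same comparison 4 of 7 skeletal muscle markers and 5 of 9 B and T cell markers were called higher, with means of 5.999 to 7.27 and 6.47 to 7.995 at week 24 against 5.73 to 5.805 and 5.38 to 6.82 at week 16. With skeletal muscle markers as a covariate limma called 0 matrix genes, and 12 had an unadjusted p under 0.05. Between week 8 and week 24 the controls had 5 higher genes, Timp3, Cpxm1, Timp2, Postn and Dcn, and none lower, against 8.49% and 4.01% of all genes. The later arrays were all above in 3 genes and all below in 0, against 2.22% and 1.22%. Between weeks 16 and 24 these counts were 1 and 10, against 3.63% and 5.64%.

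Anti-CD40L glands were described over the same ages. From week 8 to week 16, 4 genes were higher at week 16, Timp1 (1.07 ± 0.25), Timp3 (0.76 ± 0.18), Lox (0.70 ± 0.27) and Col4a1 (0.39 ± 0.14), against 24.1% of all genes. Lower were 8 genes, Lum (-0.96 ± 0.27), Col3a1 (-0.88 ± 0.24), Ogn (-0.84 ± 0.31), Cpxm1 (-0.66 ± 0.22), Fbln1 (-0.50 ± 0.14), Eln (-0.50 ± 0.14), Clec3b (-0.47 ± 0.17) and Sparc (-0.37 ± 0.15), against 12.5% of all genes. With the mean of its probe sets, Fbln1 was not called by limma over this interval (adjusted p = 0.196). The week 16 arrays were all above in 2 genes and all below in 2, against 19.1% and 8.09%. The mean of the 4 parotid genes was 13.66 to 13.88 in the week 8 anti-CD40L arrays. In the week 16 anti-CD40L arrays it was 9.18 to 13.09, with no overlap. With the parotid gene Amy1 as a covariate 8 of the 12 calls remained, and Col3a1, Ogn, Clec3b and Sparc were not called. The part of parotid tissue in these differences was not tested further. Cpxm1 and Clec3b, which rose in the controls over the same interval, are the genes for which the contrast between the treatments was itself called.

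From week 16 to week 24 the matrix genes that changed in anti-CD40L glands all rose. Higher at week 24 were 12 of 35 genes and lower none, while 2.5% of all genes were higher and 2.88% lower. With the smooth muscle and myoepithelial markers as a covariate 4 of these 12 calls remained, those of Cpxm1, Timp2, Lum and Ogn. In that fit 7 of the 35 signs turned, and the median difference went from 0.479 to 0.140. The marker mean was 7.48 to 7.69 at week 16 and 7.785 to 8.10 at week 24, with no overlap. Its share of the rise and that of age cannot be told apart. Cpxm1 rose by 1.60 ± 0.22 (adjusted p = 0.000147), Lum by 1.17 ± 0.27 (adjusted p = 0.011), Ogn by 1.12 ± 0.31, Col14a1 by 1.05 ± 0.24, Col1a2 by 0.91 ± 0.24 and Col15a1 by 0.76 ± 0.17. The other 6 were Col6a3, Pdgfra, Clec3b, Postn, Timp2 and Dcn. Against week 8, 9 genes were higher at week 24, led by Timp3 (1.03 ± 0.18), Cpxm1 (0.94 ± 0.22) and Pdgfra (0.81 ± 0.16), and Eln and Fbln1 were lower, against 16.5% and 7.12% of all genes. The week 24 arrays were all above those of week 8 in 6 genes and all below in 1, against 12.4% and 4.64%, and all above those of week 16 in 6 and all below in 0, against 5.15% and 6.55%. From week 8 to week 24, 6 of 11 smooth muscle and myoepithelial markers were also called higher in the anti-CD40L glands. With them as a covariate limma called 0 of the 35 genes, 5 had an unadjusted p under 0.05, and the median difference went from 0.295 to -0.096. For Fbln1, the mean of its probe sets had the opposite sign over this interval, at 0.166. The intervals between ages share arrays, so rises and falls over successive intervals are not independent of each other.

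Over all 12 comparisons 29 of the 35 genes were called at least once, as were 66.8% of all genes. Cpxm1 was called in 9 of the 12 comparisons. Col5a1, Col5a2, Fbln2, Fn1, Thbs2 and Pdgfrb were called in none. By sign, 23 genes were above 0 at week 8, below 0 at week 16 and above 0 at week 24. The signs at week 8 were less steady, as 11 of the 35 turned with the 3' minus 5' difference as a covariate. Mmp2, Col4a1 and Col4a2 were among the 4 genes above 0 at all ages, with Timp1.

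Arrays of a group that were high in 1 matrix gene tended to be high in others. After group means were removed, the median correlation over 595 gene pairs was 0.34 across the 30 arrays, and 77.8% of pairs were above 0. These points share the array, its RNA and its dissection. Sparc, Col1a2 and Col14a1 followed the mean of the other 34 genes most closely, with r of 0.885, 0.880 and 0.864. On the probe sets used, Fbln1, Eln, Thbs2 and Pdgfrb ran the other way, with r of -0.603, -0.434, -0.235 and -0.178. For Fbln1, Eln and Pdgfrb further probe sets passed the filter, and their correlations were not computed. The median within-group SD was 0.31 for the matrix genes and 0.22 for all genes. The genes outside the set that followed its mean most closely were Serpinf1 (r = 0.885), Islr (0.854), Nid1 (0.842), Lhfp (0.823), Gsn (0.821), Sparcl1 (0.797), Adamtsl4 (0.793), Pmp22 (0.787), Scara3 (0.786) and Pamr1 (0.781), as a description over the same 30 arrays.

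Other genes of the matrix pathway were read from 7 further lists with 122 tested genes. At week 16, 5 were lower with anti-CD40L and none higher: Efemp1 (-0.79 ± 0.20), Smoc2 (-0.76 ± 0.15), Fmod (-0.75 ± 0.20), Fbln7 (-0.72 ± 0.19) and Ctsk (-0.66 ± 0.17). Of all genes, 0.577% were called lower and 1.31% higher at week 16. Fmod encodes fibromodulin, a collagen-binding proteoglycan, and Ctsk the collagen-degrading protease cathepsin K. At week 24, 19 of the 122 were higher and none lower, against 5.96% and 3.49% of all genes. Ltbp3 (0.80 ± 0.21), Col5a3 (0.76 ± 0.17), Nid2 (0.75 ± 0.20), Spon1 (0.73 ± 0.23), Serpinf1 (0.65 ± 0.20) and Pcolce (0.64 ± 0.17) changed most. By list, the 19 were 5 of 24 genes of the transforming growth factor beta (TGF-beta) pathway, 4 of 15 other matrix proteases and inhibitors, 3 of 16 other basement membrane genes, 4 of 28 other interstitial matrix genes, 2 of 16 other fibroblast genes and 1 of 19 genes of collagen synthesis and processing. None of the 4 PDGF ligands was called, and 1 had an unadjusted p under 0.05 with limma.

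The change of the treatment difference from week 16 to week 24 was called upward in 0.631% of all genes and downward in 0.531%. Of the 122 genes it was called for 5, all upward. They were Serpinf1 (1.29 ± 0.28, adjusted p = 0.0231), Fbln7 (1.21 ± 0.27, adjusted p = 0.0264), Fmod (1.11 ± 0.28, adjusted p = 0.0491), Smoc2 (0.99 ± 0.21, adjusted p = 0.0196) and Lamb1 (0.63 ± 0.16, adjusted p = 0.0475). In the controls 59 of the 122 were higher and 9 lower at week 16 than at week 8, against 28.4% and 18.1% of all genes. Among those higher were Tgfb2 (1.53 ± 0.27) and Tgfbr2 (1.15 ± 0.24), a ligand and a receptor of the TGF-beta pathway.

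Markers of other cell types moved with some of these results. At week 16, 4 of 10 cell division markers were higher with anti-CD40L, and their mean was 5.80 to 9.03 in that group against 5.78 to 6.36 in controls. Of 11 smooth muscle and myoepithelial markers none was called at week 16, and 3 had an unadjusted p under 0.05 with limma. The mean of the 11 was 7.48 to 7.69 with anti-CD40L and 7.72 to 7.90 in controls, with no overlap. With these markers as a covariate, limma called 6 matrix genes at week 16, 3 of them among the 5 reported. Col6a3 (adjusted p = 0.0516) and Col14a1 (0.0702) were not called. The median difference went from -0.400 to -0.246, and the median change from week 16 to week 24 from 0.641 to 0.383. The marker mean did not overlap between the week 16 groups, so its share of that difference and the antibody's cannot be told apart. Across arrays, with group means removed, the mean of the 35 matrix genes had a correlation of 0.69 with that of the smooth muscle and myoepithelial markers and of -0.25 with the 3' minus 5' difference. At week 24, 7 of 9 B and T cell markers were lower with anti-CD40L, with a mean of 5.28 to 6.01 against 6.47 to 7.995 in controls. The mean of 7 skeletal muscle markers was 5.999 to 7.27 in the week 24 controls and 5.65 to 6.67 in the anti-CD40L arrays, and 1 of the 7 was called lower.

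**Figure D4:**
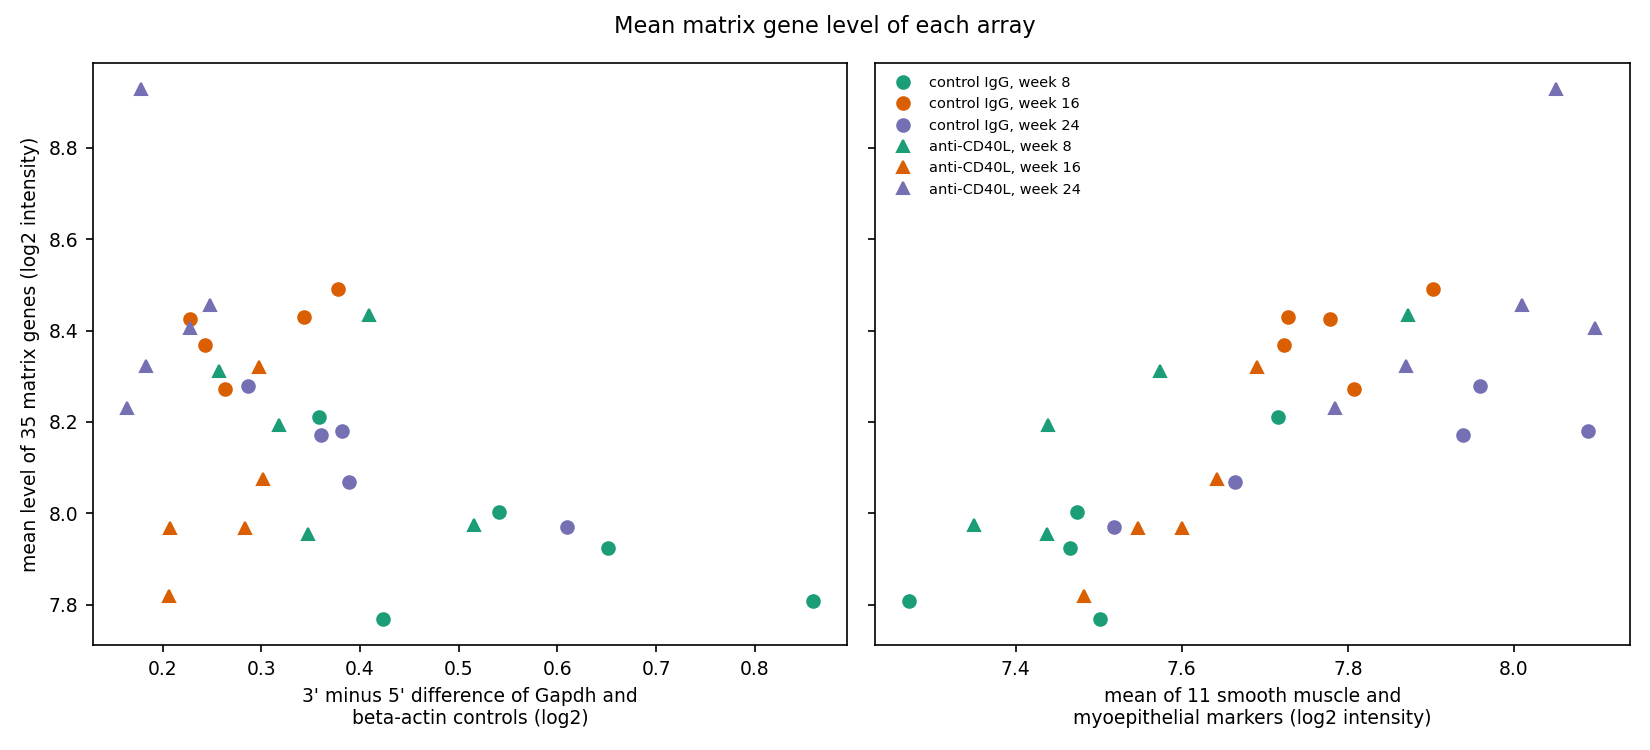
Mean level of the 35 matrix genes in each of the 30 arrays (log2 intensity) against the excess of 3' over 5' signal for Gapdh and beta-actin (left, log2) and against the mean of 11 smooth muscle and myoepithelial markers (right, log2 intensity), with colour for age and shape for treatment. The week 24 anti-CD40L arrays lie at 0.164 to 0.248 on the left axis and the week 24 controls at 0.287 to 0.610, and arrays with higher smooth muscle and myoepithelial levels tend to have higher matrix levels.

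With the 3' minus 5' difference as a covariate, limma called 0 matrix genes at week 24, 9 had an unadjusted p under 0.05, and the median difference was 0.27. The RNA measure did not overlap between the week 24 groups, so its share of that difference and the antibody's cannot be told apart. At week 8 the measure was 0.257 to 0.516 with anti-CD40L and 0.359 to 0.859 in controls. With it as a covariate limma called 0 matrix genes at week 8, and 1 rather than 10 had an unadjusted p under 0.05. In that fit 11 of the 35 signs at week 8 turned, and the median difference went from 0.202 to 0.130. For the change from week 16 to week 24, 5 of the 8 genes were still called with this covariate and Col3a1 was called in addition, while Col6a1 (adjusted p = 0.0563), Pdgfra (0.0847) and Clec3b (0.098) were not. The genes Cpxm1, Col15a1, Col6a2 and Col1a2 were called under all alternatives they entered and without each of the 20 arrays in turn. With cell division markers as a covariate, limma called 3 matrix genes at week 16, 2 of them among the 5 reported. Cpxm1 (adjusted p = 0.053), Col6a3 (0.0603) and Col14a1 (0.0595) were not called at week 16 with this covariate. For the change from week 16 to week 24, 5 of the 8 genes were still called with it. The part of the B and T cell markers in these differences was not tested beyond the values given.

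Single arrays decided several calls. At week 16 Cpxm1 was called without each of the 10 arrays in turn, while the count of called genes was 1 without control replicate 1, 2, 3 or 4 or anti-CD40L replicate 1 or 4, 2 without anti-CD40L replicate 5, 3 without control replicate 5 and 10 without anti-CD40L replicate 2. At week 24 Pdgfra and Col4a1 were called without each array in turn, and the count was 2 without control replicate 1, 14 without control replicate 2, 5 without control replicate 3 and 4 without anti-CD40L replicate 1, 3 or 4.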

How the data were processed

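The deposited table holds 1 value per probe set and array. The deposited values lie between 2.757 and 14.457, and were taken to be log2 intensities. The submitters' processing notes name limma, and the steps of summarisation and normalization were not stated in the labels or files. No further normalization was applied. Of 45101 probe sets, 64 were controls, 34945 named 1 gene by the platform annotation, 932 named several and 9160 were not named here. A gene was tested when its probe set lay above the array median in at least 5 arrays. A model with 1 mean per group over the 30 arrays was fitted with limma 3.58.1 in R 4.3.3, 12 contrasts were taken, and p-values were adjusted by Benjamini-Hochberg over 12998 genes. The procedure was tested on simulated data. Errors are standard errors. Their median was 0.186 for the matrix genes and 0.139 for all genes, and 5 arrays per group limit the precision.

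The 36 genes, the pathway lists and the marker lists were chosen with earlier results of these data known. By the rule for named genes, values per array go with up to 8 called genes of a comparison, or the 3 with the largest change where fewer than 3 were called; for the age comparisons only some of these are printed. At most 6 pathway genes per comparison are named, the largest changes first. Values per array outside that rule (Col1a1 at week 24, Clec3b at week 16, Postn and Timp1) were chosen after their values were seen. Promoter windows are from RefSeq, build GRCm38.p6. Alternatives were another normalization, filter, probe set rule, subset of arrays, array weights, covariates and leaving out arrays. Arrays were not paired by number, since same-numbered arrays of different groups had a mean correlation of deviations of -0.001.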

Additional observations from a re-analysis of the deposited data

Results flagged for a closer look

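Arrays that stood apart from the other 4 of their group were looked for in each of the 35 genes and 6 groups, 210 sets in all, by the gap to the nearest array as a share of the group's range (Dixon's test, critical value 0.71 for 5 arrays). There were 16 such values in 9 arrays, and chance alone flags about 1 in 20 groups. Replicate 3 of the week 24 anti-CD40L group was highest, apart from the rest, in 5 genes: Col1a1 (7.595), Col1a2 (11.558), Col6a1 (8.850), Sparc (10.867) and Postn (10.501). Replicate 1 of the week 24 controls was lowest in Col15a1 (6.388) and Timp1 (5.196), and replicate 5 of that group was lowest in Col14a1 (7.371). Replicate 1 of the week 24 anti-CD40L group was highest in Fbln1 (7.905), and replicate 2 of the week 16 anti-CD40L group was highest in Col6a1 (8.280). In the week 16 controls, replicate 5 was lowest in Lum (10.198) and Timp2 (10.842), replicate 3 was lowest in Sparc (10.322) and replicate 1 was highest in Timp1 (5.951). In the week 8 controls, replicate 5 was lowest in Col6a3 (8.005) and Lum (8.905).

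The treatment difference itself differed between ages, by limma's test of the change with Benjamini-Hochberg adjustment over all genes, for these genes. From week 8 to week 16 the change was -1.758 for Cpxm1 and -1.196 for Clec3b. From week 16 to week 24 it was 1.872 for Cpxm1, 1.697 for Col1a2, 1.528 for Col6a2, 1.246 for Col15a1, 1.166 for Col6a1, 1.060 for Col6a3, 0.991 for Pdgfra and 0.911 for Clec3b. Without replicate 4 of the week 16 anti-CD40L group 5 genes were called for the latter change, and Clec3b lost its call without 15 of the 20 arrays taken singly, Pdgfra without 7 and Col6a3 without 1. For the change from week 8 to week 16, Clec3b lost its call without 11 of the 20 arrays and Cpxm1 without 5.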

How the results depend on the processing

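Counts of called matrix genes were recomputed under 15 alternatives, 10 planned and 5 added after seeing the data, for 12 comparisons: 141 of 180 counts stayed within 1.5 times the count reported and 39 did not. Those that stayed include treatment at week 8 and the change from week 8 to week 24, with 0 under every alternative. Only sizes were compared, so a count can stay while its genes differ. For week 24 against 16 with anti-CD40L (12 genes), smooth muscle markers gave 10, of which 4 were among the 12. At week 16 (5 genes) the count was 9 with quantile normalization, 3 with no filter, 16 with only the arrays compared, 19 with array weights, 14 with the 3' minus 5' difference as a covariate, 14 without the arrays of low correlation, 1 with adipocyte and 3 with cell division markers as a covariate. At week 24 (8 genes) it was 2 with only the arrays compared, 0 with the 3' minus 5' difference, and 4, 1 and 5 with adipocyte, skeletal muscle, and smooth muscle and myoepithelial markers. For the change from week 16 to week 24 (8 genes) it was 16 with array weights and 5 each with skeletal muscle, smooth muscle and cell division markers. For the change from week 8 to week 16 (2 genes) it was 4 with quantile normalization, 1 with a filter at the 70th percentile, 11 with array weights, 6 without the arrays of low correlation, and 0 with the 3' minus 5' difference or cell division markers, where 21 had an unadjusted p under 0.05 in each.

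In the controls the count for week 16 against 8 (19 genes) was 1 with the 3' minus 5' difference and 3 with smooth muscle markers. For week 24 against 8 (5 genes) it was 0 with only the arrays compared, with 10 at an unadjusted p under 0.05, and 2 each with the 3' minus 5' difference, skeletal muscle and smooth muscle markers. For week 24 against 16 (7 genes) it was 2 with the 3' minus 5' difference, 0 with skeletal muscle markers, with 12 at an unadjusted p under 0.05, and 15 with smooth muscle markers. With anti-CD40L, week 24 against 8 (11 genes) gave 6 with quantile normalization, 5 with Amy1, 3 with the 3' minus 5' difference, 5 without the arrays of low correlation and 0 with smooth muscle markers, with 5 at an unadjusted p under 0.05. Week 24 against 16 (12 genes) gave 21 with array weights. The cause of these moves was not tested.

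Leaving out 1 array at a time gave counts of 0 to 0 for treatment at week 8, 1 to 10 at week 16 and 2 to 14 at week 24. In controls it gave 16 to 23, 2 to 8 and 1 to 12 for weeks 16 against 8, 24 against 8 and 24 against 16. With anti-CD40L it gave 6 to 12, 5 to 13 and 6 to 14 for the same intervals. The changes of the treatment difference gave 0 to 4, 0 to 0 and 5 to 12 for weeks 8 to 16, 8 to 24 and 16 to 24.

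With the replicate block, treatment at week 16 had a count of 5, week 24 of 8 and the change from week 16 to 24 of 8, while the change from week 8 to 16 went to 1. Of 75 same-numbered pairs 18 correlated over 0.1, and 4 of 30 arrays correlated best with their own number, so the numbers do not pair the arrays. Of 6180 values of single genes under these alternatives, 234 had the opposite sign of the value reported, and 229 of these were called under neither setting, among them Ogn at week 8 (0.298) and Fbln1 at week 24 (0.157) as means of their probe sets. With smooth muscle markers as a covariate, 21 of the 35 signs turned for week 24 against 8 with anti-CD40L, and the median became -0.096. The 5 turned values that were called under either setting were Timp2 at week 24, 0.446 as the mean of its probe sets, and, with anti-CD40L at week 24 against 8, Fbln1 at 0.166 and Pdgfrb at 0.422 as means of their probe sets, and Fbln1 at 0.008 and Loxl1 at -0.113 with smooth muscle markers as a covariate.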
